A study of Nicotiana tabacum with 8 samples.

Results

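In leaves of tobacco (Nicotiana tabacum), 105 of 135146 assembled transcripts stood far lower in cold-treated plants than in control plants, in both cultivars sequenced. A unigene is a transcript group built from the reads themselves, without a reference genome, and its level is given on a log2 scale on which each unit is a doubling and the lowest value is 0. A unigene was taken as strongly lowered when its lowest value in the control libraries exceeded its highest value in the cold libraries by at least 3 log2 units, and this distance is called the gap. Another 1 that met the condition, c112787_g1, was left out. The values of the cold and control libraries thus chose the members, so their cold response is described here without a test and supports nothing further.

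Leaf RNA was sequenced from the cultivars K326 and CB-1 at the 6-leaf stage, with 2 libraries in each group. KT was K326 and CT was CB-1, both held at 4 °C for 1 day. KC was K326 and CC was CB-1, both kept as controls under normal growth conditions. No transgene or mutation was involved, each sample pooled leaves of several plants according to the study's methods, and nothing in the labels tells whether the libraries of a group came from separate growth rounds, so p-values measure only the spread between these libraries, which may be technical.

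Cold lowers the expression of many plant genes while it raises a set of protective ones. Induction is best known through the CBF/DREB1 transcription factors, which bind a short element in the promoters of cold-responsive genes, whereas lowered genes in leaves often belong to growth, photosynthesis and hormone responses. Cultivated tobacco carries the genomes of 2 ancestral species, so many of its genes exist as closely related copies. The first number of a unigene's ID (c82541 in c82541_g5) names an assembly component, a cluster of sequences that share stretches, and the unigenes of a component can be related copies, alleles or fragments of 1 transcript and can compete for the same reads. No source used here gave a gene name for any of the 105 members, so they are named by ID and no role is given for them. The markers of leaf cells could not be matched to unigenes either, and the labelled tissue was not checked by them.

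The deposited table held no read counts, so the reads behind each value are unknown. The study lists read totals per library, which differed within groups, with more in CT2 than CT1 and in KC2 than KC1. The part of depth in the values was not tested. Back on a linear scale, the values of a library summed to 409394 to 427271 in the cold and 435173 to 469248 in the controls. Of the 135146 unigenes, 40663 were listed at 0 in all libraries, and 31884 reached a log2 value of 1 in at least 2 libraries and were tested. All 105 members passed that filter, which the rule guarantees through the control libraries. The control libraries did not pair cleanly by cultivar. The smallest median absolute difference over all tested unigenes was between CC1 and KC2, at 0.151. It was 0.208 between CC1 and CC2 and 0.239 between KC1 and KC2. The other pairs across the cultivars stood between these last values, at 0.231 to 0.232. The members showed the same order for CC1 and KC2, with 0.198, against 0.271 between KC1 and KC2 and 0.286 between CC1 and CC2.

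The 105 members were moderately expressed in control leaves and much lower in cold leaves, where 35 were listed at 0 in every library and 23 were above 0 in every library. Their control values ran between 3.04 and 7.58, and the median of their lowest control values was 4.01. Since 6596 unigenes had a lowest control value of at least 3, the members made up 1.59% of the unigenes that could have met the rule. The gap ran from 3.002 to 5.091 with a median of 3.32. It reached 4 in 17 members and 5 in 2. By the mirrored rule, 286 unigenes stood at least 3 log2 units higher in every cold library than in any control library, and 100 of these were listed at 0 in all control libraries.

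**Figure D1:**
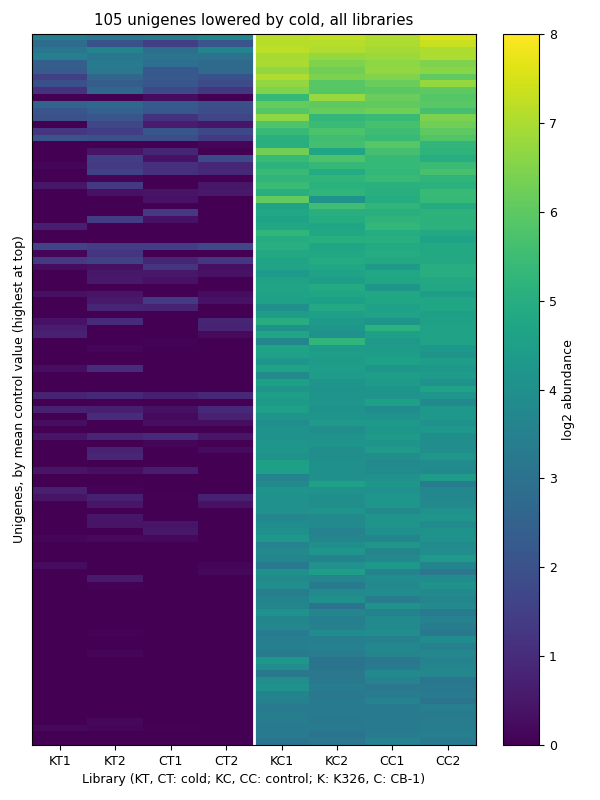
Log2 abundance of the 105 members (horizontal lines, ordered by mean control value) in the 8 libraries, cold libraries left of the white line and control libraries right of it. All control cells lie between 3.04 and 7.58, and most cold cells lie at or close to 0, with remaining cold signal mainly among the members of highest control level.

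On the fitted scale the members' median difference was −3.88 in K326 (KT minus KC, range −6.05 to −3.14) and −3.93 in CB-1 (CT minus CC, range −5.90 to −3.21). The medians over all tested unigenes were −0.31 in K326 and −0.20 in CB-1. All 105 members passed the threshold for a fall in each cultivar (adjusted p under 0.05 and a difference beyond 1 log2 unit), against 19.5% of all tested unigenes in K326, 17.4% in CB-1 and 13.4% in both, and nothing is read from these counts because the rule used the same values. The members' share of the summed linear values was 0.0176% and 0.0258% in KT, 0.0177% and 0.0195% in CT, 0.694% and 0.665% in KC, and 0.708% and 0.718% in CC. In whole leaves, less RNA per cell and fewer cells of an expressing type cannot be told apart. The paper reports that most CB-1 plants and fewer K326 plants were nearly dead after the cold treatment. The part of this damage in the values was not tested.

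The widest gap belonged to c56999_g1. It was at 0.01 and 0 in KT, 0.27 and 0 in CT, 5.36 and 6.76 in KC, and 6.18 and 5.89 in CC. This was also the member with the largest difference in both cultivars, −6.05 ± 0.44 in K326 and −5.90 ± 0.44 in CB-1 (SE), and its control libraries differed among themselves by more than those of most members. The next widest gap, 5.08, was that of c46039_g1, at 0 and 0.15 in KT, 0 and 0 in CT, 5.23 and 5.23 in KC, and 5.44 and 5.23 in CC. For c84413_g1 the values were 0 and 0 in KT, 0 and 0.12 in CT, 5.03 and 5.65 in KC, and 5.94 and 5.25 in CC. In each of these 3 unigenes, at least 2 of the cold libraries were listed at 0 and the rest stayed below 0.3. The unigene c28477_g1 was at 0 and 0.05 in KT, 0 and 0 in CT, 4.62 and 5.53 in KC, and 5.23 and 4.91 in CC. Values for c85783_g5 were 0 and 0.40 in KT, 0.42 and 0.56 in CT, 5.003 and 5.241 in KC, and 5.04 and 5.42 in CC. This last unigene kept a low level in 3 of the cold libraries, and both CT values lay above both KT values.

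A group of 35 members was listed at 0 in all cold libraries. An exact 0 in a table without counts can stand for no reads or for a failed estimate, so these are given as listed. The highest of them by lowest control value was c74819_g3, with 5.25 and 4.81 in KC and 4.97 and 4.86 in CC. The same pattern held for c70205_g1, with 4.94 and 5.05 in KC and 4.63 as the lower and 5.05 as the higher value in CC. Control libraries of both unigenes spanned less than 0.5 log2 units. In c104157_g1 the values were 4.40 and 4.52 in KC and 4.61 and 4.55 in CC, and in c67621_g2 they were 4.68 and 4.89 in KC and 4.24 and 4.76 in CC. No fold is given for these members, since the cold side has no measured level.

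The other end was formed by members that kept a measurable level in the cold. The highest control level belonged to c79694_g1, at 3.37 and 3.13 in KT, 3.25 and 3.68 in CT, 7.16 and 7.28 in KC, and 7.05 and 7.58 in CC. Next came c54220_g1, at 2.82 and 2.02 in KT, 1.48 and 2.10 in CT, 7.16 and 7.12 in KC, and 7.02 and 7.34 in CC. The level of c82541_g5 was 3.16 and 3.60 in KT, 2.89 and 3.60 in CT, 7.19 and 7.04 in KC, and 6.92 and 7.02 in CC. These 3 unigenes were thus well above 0 in every cold library, and the cold values of the cultivars overlapped in c79694_g1, c54220_g1 and c82541_g5. For c72066_g1 the levels were 3.45 and 3.13 in KT, 3.08 and 2.99 in CT, 6.97 and 6.75 in KC, and 6.80 and 7.01 in CC. For c85030_g2 they were 2.41 and 3.33 in KT, 2.91 and 2.75 in CT, 7.00 and 6.46 in KC, and 6.63 and 6.46 in CC. In c72066_g1 both KT values lay above both CT values, by a margin of less than 0.1, whereas those of c85030_g2 overlapped.

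Between these ends the level left in the cold was higher where the control level was higher. Among the 37 members with a mean control value between 3 and 4, 21 were listed at 0 in all cold libraries, as were 14 of the 41 members between 4 and 5. None of the 16 members between 5 and 6 and none of the 11 above 6 was listed at 0 throughout. The median of the mean cold value was 0, 0.22, 0.64 and 2.37 in these 4 bands. The rule itself shapes the lower bands, since a unigene with a control value just over 3 can enter only when its cold values are close to 0. The 1 member of the top band with a cold library at 0 was c56999_g1, described above.

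**Figure D2:**
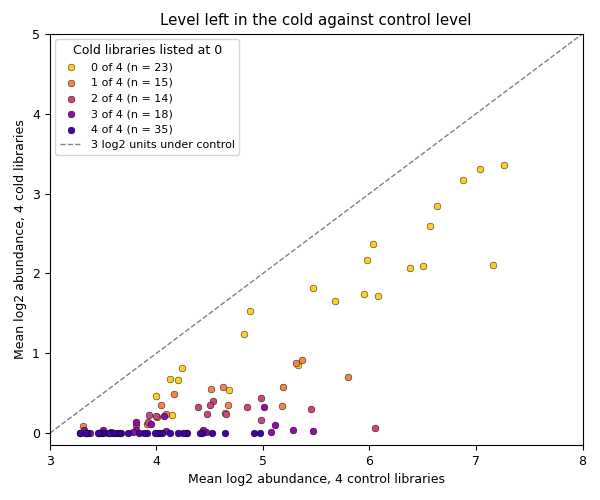
Mean log2 abundance over the 4 cold libraries against the mean over the 4 control libraries for the 105 members, coloured by the number of cold libraries listed at 0. The 35 members at 0 in all cold libraries have mean control values up to 4.97, and the members above a mean cold value of 2 have mean control values from 5.97 upward.

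On a linear scale, 23 members never listed at 0 allow a ratio of cold to control. Taking the deposited values as the log2 of an abundance plus 1, the level left in the cold was 0.730% to 7.77% of the control level in K326, with a median of 4.50%, and 1.30% to 7.06% in CB-1, with a median of 4.25%. The lowest share in both cultivars was that of c72201_g6, at 0.730% in K326 and 1.30% in CB-1. Its cold values were close to 0, at 0.30 and 0.01 in KT and 0.29 and 0.30 in CT. These 2 shares therefore depend strongly on the constant taken. The highest were those of c40713_g1 in K326, at 7.77%, and of c82541_g5 in CB-1, at 7.06%.

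There was no break in the gap at the threshold. The 4 members with the narrowest gap were c113631_g1, c86212_g7, c53870_g1 and c56184_g1, at 3.002, 3.007, 3.010 and 3.020. Just outside stood c112118_g1, c75576_g4, c81385_g1 and c63304_g1, whose gaps were 2.997, 2.986, 2.985 and 2.972. For c112118_g1 the values were 0.56 and 0.70 in KT, 0.43 and 0.04 in CT, 4.45 and 3.69 in KC, and 3.80 and 4.36 in CC. With a required gap of 2 in place of 3, 491 unigenes met the rule.

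Cold libraries differed in how much of the members they still held. Of the 105 members, 68 were listed at 0 in KT1, 46 in KT2, 60 in CT1 and 63 in CT2, and 16, 25, 20 and 17 of them exceeded 1 in KT1, KT2, CT1 and CT2. KT2 therefore retained the most members on both counts. It was higher than KT1 in 48 members, lower in 15 and tied in 42, and it held the highest cold value in 38 of the 70 members with any cold value above 0. Among the 18 members with a single cold library above 0, that library was KT2 in 11, CT1 in 4 and CT2 in 3, and never KT1. KT2 was also the cold library with the fewest zeros over all tested unigenes, 14.8%, against 17.4% in KT1, 16.99% in CT1 and 15.3% in CT2, and the part of this in the members' values was not tested.

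KT2 also stood out in 3 of the 4 members with the widest spread in the cold. The values of c68201_g1 were 0 and 1.48 in KT, 0.40 and 1.78 in CT, 5.38 and 5.75 in KC, and 5.36 and 4.97 in CC. Those of c76823_g1 were 0 and 1.71 in KT, 0.62 and 0.48 in CT, 5.81 and 5.45 in KC, and 5.68 and 6.26 in CC. In both, KT1 was at 0 and KT2 was well above it. The unigene c209_g1 was at 0 and 1.56 in KT, 1.07 and 0.90 in CT, 5.39 and 4.91 in KC, and 5.29 and 5.66 in CC. The unigene c41664_g1 was at 1.13 and 2.67 in KT, 1.77 and 1.30 in CT, 6.47 and 5.88 in KC, and 5.960 and 6.003 in CC. KT2 was the highest cold library in c76823_g1, c209_g1 and c41664_g1, and CT2 in c68201_g1. Over all members the median range across the cold libraries was 0.27 and exceeded 1 in 15, and the median range across the control libraries was 0.52 and exceeded 1 in 11. The widest control range, 1.97, was that of c79716_g1, at 6.06 and 4.10 in KC and 4.95 and 5.35 in CC, so that both CC values lay between the KC values.

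The rule treated the cultivars alike and did not select on the difference between them. It did limit that difference in the cold, since every cold value had to lie at least 3 log2 units under the lowest control value. The difference was tested under this limit. In the cold it was 0 as listed in the 35 members at 0 in all cold libraries. In the cold, 0 of the 105 members differed between K326 and CB-1 at the threshold (KT minus CT, limma with Benjamini-Hochberg adjustment), against 0.405% of all tested unigenes. The members' differences had a median of 0 and ran from −0.66 to 0.67, with 45 above 0, 25 below 0 and the rest tied. An unadjusted p under 0.05 was reached by 2 members (1.90%), against 13.5% of all tested unigenes, and a test of each unigene without moderated variance also called 0 members, with 1 at an unadjusted p under 0.05. A difference of over 1 log2 unit was found in 0 members and in 11.5% of all tested unigenes. Cold values close to 0 leave little room for a difference, and the rule favours unigenes with even cold values, so these counts do not show that the cultivars were alike.

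The largest positive differences in the cold were those of c66666_g1, c67185_g3 and c34656_g1. The first was at 0.48 and 1.33 in KT and 0 and 0.48 in CT, a difference of 0.67 ± 0.32 (SE). The second was at 0.30 and 1.02 in KT and 0 and 0 in CT, a difference of 0.66 ± 0.25, and the third at 0.10 and 1.21 in KT and 0 and 0 in CT, a difference of 0.65 ± 0.35. In all 3 the KT values lay above the CT values, although the pair of KT libraries differed by more than 0.7 in each. The largest negative differences were −0.66 ± 0.41 in c106411_g1, at 0 and 0 in KT and 1.32 and 0 in CT, −0.59 ± 0.35 in c3450_g1, at 0 and 0.56 in KT and 1.35 and 0.39 in CT, and −0.56 ± 0.25 in c85077_g1, at 1.27 and 1.48 in KT and 2.13 and 1.74 in CT. Only in c85077_g1 of these 3 did the cultivars not overlap. The smallest adjusted p among the members was 0.247 (limma with Benjamini-Hochberg adjustment), for c40713_g1, at 2.55 and 2.69 in KT and 2.26 and 1.97 in CT. Without overlap, KT lay above CT in 12 members (against 19% of all tested unigenes) and below CT in 2 (against 18.5%).

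The cold response itself was compared between cultivars as the difference of differences, (KT minus KC) minus (CT minus CC). Again 0 of the 105 members were called, against 0% of all tested unigenes, with 2 members (1.90%) at an unadjusted p under 0.05, against 9.20% of all tested unigenes, and 0 members called without moderated variance, with 4 at an unadjusted p under 0.05. The members' median was 0.10, against −0.08 over all tested unigenes, and it was −0.02 without KT2. This value is built from the levels that the rule used, which keeps unigenes with low, even cold values, so a share under that of all unigenes does not show that the responses were alike. A positive value means a smaller difference between cold and control in K326 than in CB-1. The largest were 0.88 ± 0.63 in c77208_g2, 0.82 ± 0.34 in c85837_g3 and 0.76 ± 0.49 in c34656_g1 (SE). For c77208_g2 the cold values were 0 and 1.39 in KT and 0.39 and 0 in CT, and the control values 4.64 and 4.94 in KC and 5.21 and 5.14 in CC. The most negative were −0.93 ± 0.33 in c113631_g1, −0.75 in c68201_g1 and −0.56 in c72252_g1. For c113631_g1 the cold values were 0 and 0 in KT and 0 and 0.18 in CT, and the control values 4.01 and 4.45 in KC and 3.59 and 3.18 in CC, so its value came from the control libraries, where KC lay above CC. The smallest adjusted p was 0.460 (limma with Benjamini-Hochberg adjustment), for c113631_g1.

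**Figure D3:**
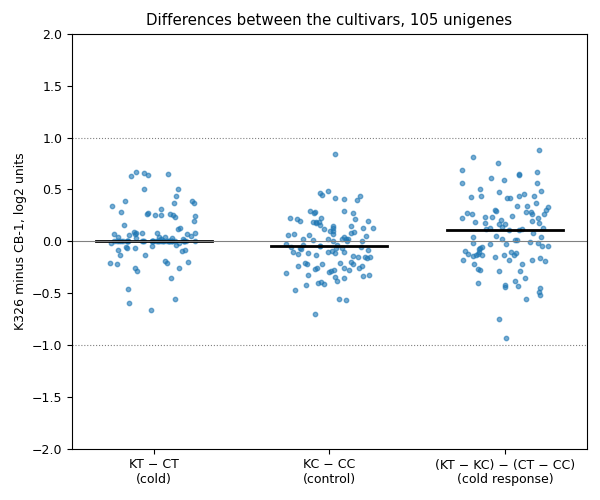
Differences between the cultivars for the 105 members in log2 units, each point a unigene and each bar the median: KT minus CT in the cold (median 0), KC minus CC in the controls (median −0.05) and the difference of the cold responses (median 0.10). All points lie within the dotted lines at 1 log2 unit on either side of 0.

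In control leaves 0 of the 105 members were called between the cultivars (KC minus CC), against 0% of all tested unigenes, with 2 at an unadjusted p under 0.05 (1.90%, against 3.53% of all tested) and 0 called without moderated variance, where 6 had an unadjusted p under 0.05. The members' differences ran from −0.70 to 0.85 with a median of −0.05, against 0.05 over all tested unigenes. The difference was below 0 in 56 members and above 0 in 49, and the median was −0.0045 without CC1. Both KC values lay below both CC values in 25 members (23.8%, against 7.99% of all tested unigenes) and above them in 11 (10.5%, against 18.2%). Among 6490 other unigenes with a lowest control value of at least 3, KC lay below CC in 7.72% and above it in 26.1%. The counts were 35 below and 6 above with a median-ratio scaling of the libraries and 36 and 7 with quantile normalization. Both scalings moved the median KC minus CC of all tested unigenes from 0.047 to 0, and the shares of all tested unigenes were not computed there. Without KC2 the counts were 39 and 34, and without KC1 they were 51 and 21. A lone KC library overlaps less often, and the excess of KC below CC was smaller without KC2 than without KC1. The 2 members with an unadjusted p under 0.05 were c101982_g1, at 3.19 and 3.18 in KC and 3.79 and 3.70 in CC, and c113631_g1, described above. Their differences were −0.56 and 0.85, and over all members KC1 and KC2 differed by a median of 0.271.

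The members were spread over 103 assembly components, of which 41 held further unigenes. A component held more than 1 unigene in 39.8% of these cases, against 34.9% of the components with a tested unigene and 32.3% of those with another unigene expressed at 3 or more in all control libraries. Only 2 components contributed a pair of members. In c76766, c76766_g2 was listed at 0 in all cold libraries, with 3.40 and 3.28 in KC and 3.32 and 3.32 in CC, and c76766_g4 was also at 0 there, with 3.68 and 3.05 in KC and 4.10 and 3.76 in CC. In c50172, c50172_g2 was at 0 in the cold, with 4.22 and 3.04 in KC and 3.17 and 3.55 in CC. Its partner c50172_g3 was at 0.43 and 0.32 in KT, 0.65 and 0 in CT, 4.50 and 4.01 in KC, and 3.85 and 3.80 in CC. Both members of the c50172 pair were highest in KC1.

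The other unigenes of these components were not chosen by their own values, except that none of them could have a gap of 3 or more. The 41 components held 151 of them and 101 were tested. In K326, 47 fell (46.5%, against 19.5% of all tested unigenes) and 15 rose (14.9%, against 14.7%). In CB-1, 40 fell (39.6%, against 17.4%) and 12 rose (11.9%, against 15.5%). A fall in both cultivars was found in 37 (36.6%, against 13.4%) and a rise in both in 11 (10.9%, against 10.3%). Without KT1 the count for K326 was lower, and the share of all tested unigenes in that run was not computed. The median difference of the 101 was −0.87 in K326 and −0.93 in CB-1, against −0.31 and −0.20 over all tested unigenes. These unigenes can share reads with the members, so they are not independent of them, and no test of the excess was made.

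**Figure D4:**
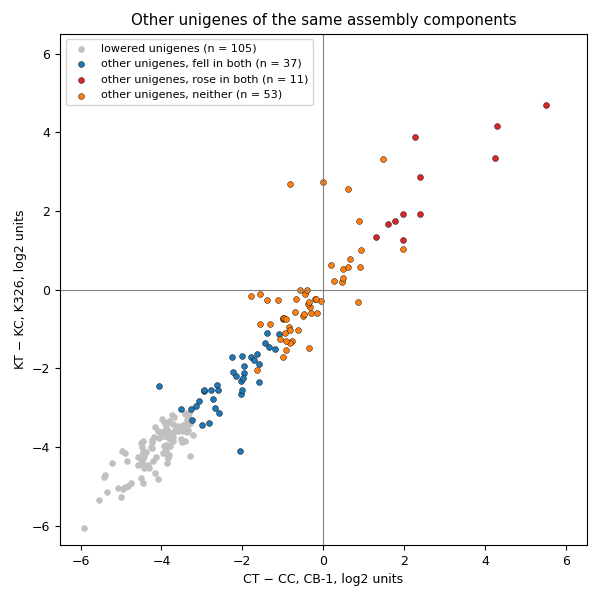
Cold response in K326 (KT minus KC) against cold response in CB-1 (CT minus CC), in log2 units, for the 101 tested unigenes that share a component with a member and, in grey, for the 105 members. Of the 101, 37 fell in both cultivars and 11 rose in both.

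Some components fell as a whole. In c82541, which held the member c82541_g5, the 4 other unigenes were at 4.61 to 6.19 in KT, 4.96 to 6.42 in CT, 6.69 to 8.40 in KC, and 6.70 to 8.46 in CC. Each of them fell in both cultivars, by 1.64 to 2.54 log2 units in K326 and by 1.63 to 2.02 in CB-1. In the component of c85030_g2, the unigene c85030_g4 was at 1.30 and 2.18 in KT, 1.27 and 1.63 in CT, 5.14 and 4.96 in KC, and 4.68 and 4.71 in CC, a difference of −3.31 ± 0.31 in K326 and −3.25 ± 0.31 in CB-1 (SE). This unigene had a gap of 2.51, set by the 2.18 of KT2 and the 4.68 of CC1. A like pattern was shown by c66834_g1, beside c66834_g2, at 1.46 and 2.11 in KT, 1.30 and 1.70 in CT, 4.99 and 4.50 in KC, and 4.71 and 4.60 in CC. In c68068_g2, beside c68068_g1, the values were 0.52 and 1.42 in KT, 0 and 0 in CT, 3.14 and 3.68 in KC, and 3.99 and 4.11 in CC, with KC below CC and KT above CT.

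The only gene names in these components were those of 3 unigenes that are not members. Unigene c85783_g6, in the component of c85783_g5, was annotated as ARG7, an auxin-induced protein, and stood at 0.98 and 0 in KT, 3.02 and 1.15 in CT, 4.84 and 4.33 in KC, and 4.48 and 3.81 in CC. It fell in K326 by 4.10 ± 0.67 and in CB-1 by 2.06 ± 0.67 log2 units (SE), with adjusted p = 0.00508 in K326 and 0.0499 in CB-1 (limma, Benjamini-Hochberg), while its responses in the cultivars were not called different (adjusted p = 0.600). It thus moved in the same direction as c85783_g5.

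The other named unigenes moved the opposite way from their members. Unigene c67621_g1, in the component of c67621_g2, was annotated as DREB1F, a member of the CBF/DREB1 family of transcription factors. It stood at 2.48 and 4.52 in KT, 1.01 and 1.94 in CT, 0.36 and 0 in KC, and 0 and 0 in CC. It rose in K326 (3.32 ± 0.67 SE, adjusted p = 0.0101, limma with Benjamini-Hochberg adjustment) and was not called in CB-1 (1.48, adjusted p = 0.126), nor was the difference between these responses called (1.84, adjusted p = 0.655). The member c67621_g2 and this unigene were therefore never both above 0.5 in the same library. Unigene c85837_g1, in the component of c85837_g3, was annotated as BCS1-B, a probable mitochondrial chaperone whose yeast relative helps to assemble a respiratory complex, and stood at 5.06 and 4.72 in KT, 3.17 and 4.39 in CT, 1.91 and 0.12 in KC, and 1.56 and 1.49 in CC. It rose in both cultivars, by 3.88 ± 0.64 in K326 and 2.25 ± 0.64 in CB-1 (SE), while c85837_g3 was at 0.67 and 0.01 in KT, 0 and 0 in CT, 4.79 and 4.70 in KC, and 5.31 and 5.13 in CC. Whether these named genes and the members beside them are 1 gene or different genes cannot be told from the table.

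Opposite movement of a member and another unigene of its component was also found without names, and what links them was not tested. In c86212, the member c86212_g7 was at 0.71 and 0.08 in KT, 0 and 0.01 in CT, 4.13 and 4.10 in KC, and 4.06 and 3.72 in CC. Its neighbour c86212_g5 stood at 5.41 and 3.95 in KT, 5.93 and 5.25 in CT, 0 and 0 in KC, and 0.16 and 0 in CC. Each of the pair was near 0 where the other was high. In c79620, the member c79620_g3 was at 0 in all cold libraries, with 3.93 and 3.09 in KC and 3.26 and 3.67 in CC, while c79620_g4 was at 3.77 and 4.53 in KT, 4.45 and 4.11 in CT, and at 0 in all control libraries. A further unigene of this component, c79620_g5, was at 7.64 and 7.24 in KT, 7.73 and 7.85 in CT, 8.17 and 7.92 in KC, and 7.93 and 7.99 in CC, and was not called in either cultivar. A rise in both cultivars of at least 1 further unigene was found in 9 components and a fall in both of at least 1 in 27, with 6 components holding both. The shares over all components were not computed, so nothing is read from these counts. Per unigene, the share that rose in both, 10.9%, was near the 10.3% of all tested unigenes.

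Linear values were therefore summed over each component, members included, and shown as the log2 of the sum plus 1. Changes are differences between group means of these values. Where the cold sums of a cultivar were all 0, the size of the change depends on the added 1. The median change of the 41 sums was −2.57 in K326 and −3.16 in CB-1. Without a test, the sum was lower in the cold by over 1 log2 unit in both cultivars in 32 components, and by over 3 in both in 19. It lay within 1 unit in both cultivars in 5, was higher by over 1 in both in 0, and was mixed in the other 4. In the control libraries the members made up 0.298% to 99.7% of their component's sum, with a median of 67.6%, and over 50% in 29 components. Each sum includes the member that the rule chose for its fall. A lower sum is thus largely built in where the member held most of it, and nothing is read from these counts.

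**Figure D5:**
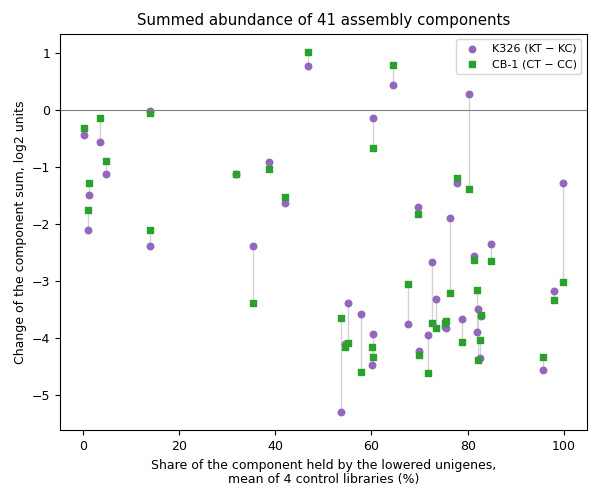
Change of the summed abundance of each of the 41 components with more than 1 unigene, in log2 units, against the share of the component's control level held by its members, with K326 (KT minus KC) as circles and CB-1 (CT minus CC) as squares joined by a line. Each sum includes the members, which the rule chose for their fall. The sum was lower in the cold by over 1 unit in both cultivars in 32 components. It was higher in both in c86212 (0.76 in K326, 1.01 in CB-1) and c75479 (0.43 in K326, 0.78 in CB-1).

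The share held by the member varied widely among components. The member c66699_g3, at 0 in all cold libraries, with 4.07 and 3.96 in KC and 4.22 and 4.26 in CC, made up 0.298% of a component led by c66699_g1, which was at 11.91 and 11.90 in KT, 12.38 and 12.05 in CT, 12.22 and 12.46 in KC, and 12.39 and 12.68 in CC. Its component changed by −0.44 in K326 and −0.33 in CB-1. In c74819, c74819_g3 made up 1.30% of the control sum, and the sum changed by −1.50 in K326 and −1.28 in CB-1. In c67621, where c67621_g2 held 99.7% of the control sum and the DREB1F unigene all of the cold sum, the sum changed by −1.29 in K326 and −3.03 in CB-1. The component of c85837_g3 changed by 0.27 in K326 and −1.38 in CB-1.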

How the data were processed

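Poly(A) RNA of pooled leaves was sequenced in 8 libraries, 2 for each of KT, CT, KC and CC. Per the study's text, the authors kept high-quality reads with NGSToolkits 2.3.3, assembled them into unigenes with Trinity, mapped them with bowtie and estimated abundance with RSEM. The deposited table holds log2 abundance values of 135146 unigenes with a lowest value of 0. How the authors scaled the libraries before taking log2, and which constant they added, are not given in the sources used here. The values are not counts, so no count model was used. The study's read totals per library were not used in the fit.

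Members and gene lists were chosen with earlier results of these data known. The 31884 unigenes that reached a log2 value of 1 in 2 or more libraries were fitted in limma 3.58.1 (R 4.3.3) with 4 group means, no replicate block and a variance trend, and p-values were adjusted by Benjamini-Hochberg over all of them. A call needed an adjusted p under 0.05 and a difference of over 1 log2 unit. Linear values were taken as the antilog minus 1, and component sums were formed on that scale. The fit was tested on simulated data with falls planted in KT only and no floor at 0. The members lay near 0 in the cold in both cultivars. The simulation therefore does not show what the comparisons between cultivars could detect among them.

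Members were named by rule: the 8 widest gaps, the 5 highest mean control values, the 4 highest among those at 0 in the cold, the 3 largest differences in each direction for KT minus CT and for the difference of responses, the 4 widest cold spreads, pairs in 1 component, and the 4 nearest the threshold on either side. Members and other unigenes named for component behaviour, for a control range or for an unadjusted p were chosen after their values were seen. Alternatives were a pseudocount of 0.1, other filters, median-ratio and quantile scaling, an unmoderated test, a replicate block, other gap thresholds and leaving out each library. The sequences of the unigenes were not analysed here.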

Additional observations from a re-analysis of the deposited data

How the results depend on the processing

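The number of members called stayed at 0 for KT minus CT, for KC minus CC and for the difference of the cold responses. This held in every alternative with 2 or more libraries in each group. In the main fit 0.405% of all tested unigenes were called for KT minus CT and 0% for the other comparisons. These counts therefore do not show that the cultivars were alike. With a pseudocount of 0.1 the members' median cold response was −6.53 in K326 and −6.66 in CB-1, and 1144 unigenes met the rule, since low values weigh more on that scale. Median-ratio scaling, which moved the median of all tested unigenes to 0 in K326 and 0.00 in CB-1 from −0.31 and −0.20, gave a median of −3.55 in K326 and left 58 unigenes under the rule. A required gap of 2 gave 491 unigenes and of 4 gave 17. Leaving out 1 library at a time gave 108 (without CC1) to 129 (without KT2) unigenes under the rule, and 30 (without KT1) to 44 further component unigenes that fell in K326. KC lay above CC without overlap in 6 members under median-ratio scaling and in 7 under quantile normalization, both chosen after seeing the data. The shares of all tested unigenes were not computed for these 2 counts. When 1 library at a time was left out, KC lay below CC in 39 members (without KC2) to 51 (without KC1), as fewer libraries overlap less often. It lay above CC in 34 members without KC2 and in 21 without KC1. The difference KT minus CT of c106411_g1 was 0 without CT1 and −1.32 without CT2.

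Whether same-numbered replicates were paired is not stated in the sources used here. The correlation of their deviations was 0.0157 between KT and CT and −0.376 between KC and CC. In the other pairs of groups it ran from −0.0435 to 0.0445. With the replicate number as a block, 0 members were called in each comparison between cultivars, the members' medians were −3.88 in K326 and −3.93 in CB-1, and 46 further component unigenes fell in K326 and 38 in CB-1. A crossed block, in which the replicate numbers of KC were swapped, was added after seeing the data. It also called 0 members and gave 46 in K326 and 38 in CB-1. The shares of all tested unigenes that fell were not computed for either block. With 2 libraries a group and no counts, small differences among values near 0 could not be resolved.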
